A study of Mus musculus with 2 samples.

Results

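The regions described here are strong nucleosome calls listed after tamoxifen alone. They were chosen by 3 criteria on measured positions and scores: a place on an autosome, a score of 200 or more, and a centre more than 200 bp from every centre in the ethanol list. The criteria selected 3860 calls of 129892 autosomal tamoxifen calls scored 200 or more, out of 2724853 calls in both lists. They are named tamoxifen-only strong calls below, and the other 126032 strong tamoxifen calls, which had an ethanol centre within 200 bp, are named matched strong calls. The name refers to the lists. A nucleosome below the authors' cutoff is not listed, so a position without an ethanol call may still have carried a nucleosome.

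Both libraries came from mouse embryonic stem (ES) cells of genotype Brg1fl/fl that carry Actin-CreER, a Cre recombinase driven by an actin promoter and switched on by tamoxifen. One culture was kept for 24 hours in tamoxifen at 0.8 µM and the other in the vehicle, ethanol, and 48 hours of growth in serum-LIF medium without either agent followed. The ethanol cells thus carry the floxed alleles and the Cre too. Each group had 1 library, made from the mononucleosome band of a 12 U digest with micrococcal nuclease (MNase). With no replicates there are no tests below. The 95% intervals reflect the number of calls and nothing else. The lists hold no measure of Brg1, so its loss was not checked here.

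A nucleosome is a stretch of DNA wound around an octamer of histones, and neighbouring nucleosomes are joined by linker DNA. MNase cuts the linkers, so the fragments that survive mark where the octamers sat, and positions that are the same in many cells give sharp piles of fragments. Brg1 is the ATPase of the BAF complexes of ES cells, which belong to the SWI/SNF family of remodelers and can slide or evict nucleosomes. The series asks whether these complexes promote the spacing of nucleosomes beside the binding sites of pluripotency factors.

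Tamoxifen-only strong calls were few. They made up 2.97% of the strong tamoxifen calls (Wilson interval 2.88 to 3.07%), whereas 32.5% of all autosomal tamoxifen calls of any score lay more than 200 bp from every ethanol centre. Among the strong tamoxifen calls, 92231 (71.0%) had an ethanol centre within 20 bp, 19036 (14.7%) between 20 and 40 bp, 10712 (8.25%) between 40 and 80 bp and 4053 (3.12%) between 80 and 200 bp. Strong calls thus mostly sat at nearly the same place in both libraries, and the calls described here form the far end of that range. Of the 3860, 2212 were over 400 bp from any ethanol centre, 904 over 1000 bp and 50 over 5000 bp.

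The reverse list was shorter, though of the same order. Strong ethanol calls more than 200 bp from every tamoxifen centre numbered 3098 (Poisson interval 2990 to 3209), against 3860 (3739 to 3984) in the tamoxifen list, a ratio of 1.25 (1.19 to 1.31). They were 2.49% (2.40 to 2.58%) of the 124463 strong ethanol calls, and 26.8% of all autosomal ethanol calls had no tamoxifen centre within 200 bp. The tamoxifen list held 1.10 times as many autosomal calls as the ethanol list and 1.04 times as many strong ones, so a tamoxifen call had fewer possible partners. With the strong tamoxifen calls cut by rank to the 124463 of the ethanol list, the ratio was 1.12 (1.06 to 1.17). This cut removed the lowest-scored strong tamoxifen calls and left 204.9 as the lowest score kept. The ethanol list kept its cutoff of 200, so the cutoffs of the 2 lists then differed. Distances were still taken to the full lists, so it does not adjust for the number of possible partners. How 2 ethanol cultures would differ is not known from these data, and the part of the list sizes in the ratio was not tested.

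The tamoxifen-only calls were concentrated near the score cutoff. The score is the authors' own, of a definition not given in the sources used here, and serves to rank calls within a list. The median was 229.0, with quartiles of 212.8 and 263.3, against a median of 269.6 and quartiles of 229.0 and 353.5 for matched strong calls. Scores under 250 were held by 2642 of the 3860 (68.4%, interval 67.0 to 69.9%), and by 41.1% (40.8 to 41.4%) of the matched calls. Only 578 reached 300 and 63 reached 1000. At the maximum of 3250 there were 17 tamoxifen-only calls and 672 matched ones.

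Seen over the range of scores, the share of calls with no partner fell steeply up to the class from 400 to under 600. It was higher again in the top class. It was 51.9% for tamoxifen calls scored from 50 to under 65, 12.8% from 129 to under 200, 4.85% from 200 to under 250 and 0.960% (0.811 to 1.13%) from 400 to under 600. At 1000 or more it was 1.72% (1.35 to 2.20%), above the interval of the class from 400 to under 600. The ethanol list showed the same shape, with 0.918% (0.771 to 1.09%) from 400 to under 600 and 1.76% (1.36 to 2.28%) at 1000 or more. The excess of the tamoxifen list lay at the lower scores. From 200 to under 250 the shares were 4.85% (4.68 to 5.04%) with tamoxifen and 3.87% (3.71 to 4.04%) with ethanol. In each of the 5 classes from 250 upwards the intervals of the 2 lists overlapped, and at 300 or more the counts were 578 and 561.

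**Figure D1:**
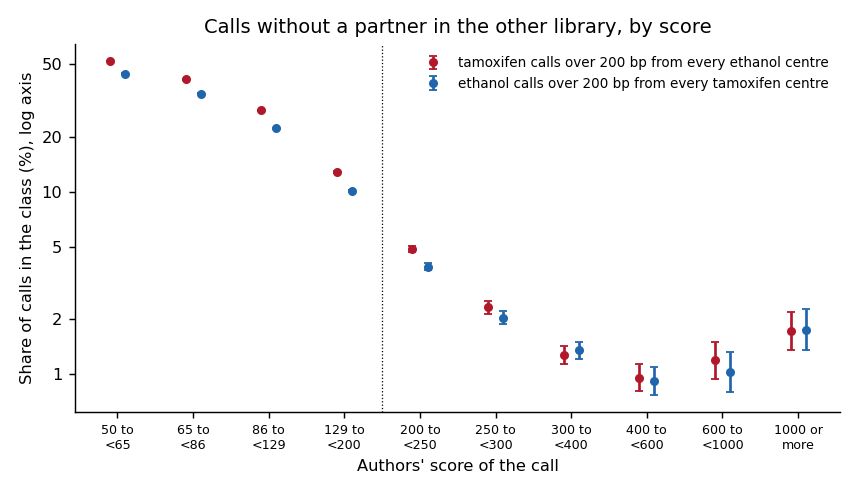
Share of autosomal calls with no centre of the other list within 200 bp (log axis) by class of the authors' score, for the tamoxifen list (red) and the ethanol list (blue), with Wilson intervals; the dotted line marks the cutoff of 200. The tamoxifen share falls from 51.9% to 0.960% and is 1.72% in the highest class, and above 250 the intervals of the lists overlap.

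Both cutoffs fall within a continuum. Just inside the score cutoff, 20 calls with no ethanol centre within 200 bp had a score of 200.1 and 78 had 200.9, and just outside it 64 had 199.9 and 62 had 199.3. In all, 12746 unmatched tamoxifen calls were scored from 150 to under 200. At the distance limit, 97 strong calls lay 205 bp from the nearest ethanol centre and were included, and 97 lay at 200 bp and were not.

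Tamoxifen-only strong calls were wider than matched ones. How the caller set the width of a call is not known here. The median width of the tamoxifen-only calls was 140 bp with quartiles of 110 and 170 bp, whereas matched strong calls had a median of 110 bp with quartiles of 90 and 140 bp. Calls of 180 bp or more made up 24.3% (22.97 to 25.7%) of the tamoxifen-only calls and 9.23% (9.07 to 9.39%) of the matched calls. Calls of 100 bp or less made up 24.5% (23.2 to 25.9%) and 45.1% (44.8 to 45.3%). The histogram of the tamoxifen-only calls had a peak at 100 bp (398 calls, 10.3%) and a broad second rise from 130 to 170 bp. Each width in that rise held 269 to 310 calls, with the most at 170 bp (8.03%), against 227 at 120 bp. The matched calls had a single peak at 90 bp (20.1%).

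The difference in width was present at equal score. From 200 to under 250 the median widths were 140 bp for tamoxifen-only and 110 bp for matched calls, and from 300 to under 600 they were 150 and 110 bp. At 600 or more the 135 tamoxifen-only calls had a median of 120 bp (interval 110 to 140 bp) and the matched calls 110 bp (100 to 110 bp). These intervals met at 110 bp. Calls of 100 bp or less made up 39.3% (31.4 to 47.7%) and 49.5% (48.5 to 50.5%) there, with intervals that stood apart. A difference in width was also present at every local density. In the 10 density classes described below, the mean width was 139.9 to 146.1 bp for tamoxifen-only and 118.6 to 122.2 bp for matched calls. Read the other way, the share of strong calls that were tamoxifen-only was 1.43% (1.30 to 1.59%) at a width of 90 bp and 8.60% (7.12 to 10.3%) at 220 bp.

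Width was not particular to the tamoxifen list. The 3098 strong ethanol calls with no tamoxifen partner also had a median width of 140 bp, with quartiles of 100 and 170 bp, and 23.9% (22.4 to 25.4%) of them were 180 bp or wider. Nor did width rise evenly with distance from the nearest ethanol centre. Strong tamoxifen calls 40 to 80 bp away had the largest median among the 7 distance classes, 160 bp, and 34.9% were 180 bp or wider. Those 80 to 200 bp away had a median of 120 bp and 16.7%, and beyond 1000 bp the median was 140 bp and the share 26.4%. Among calls scored under 200 the contrast was small: 5.21% of the unmatched and 3.64% of the matched calls were 180 bp or wider, and both had a median of 100 bp.

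**Figure D2:**
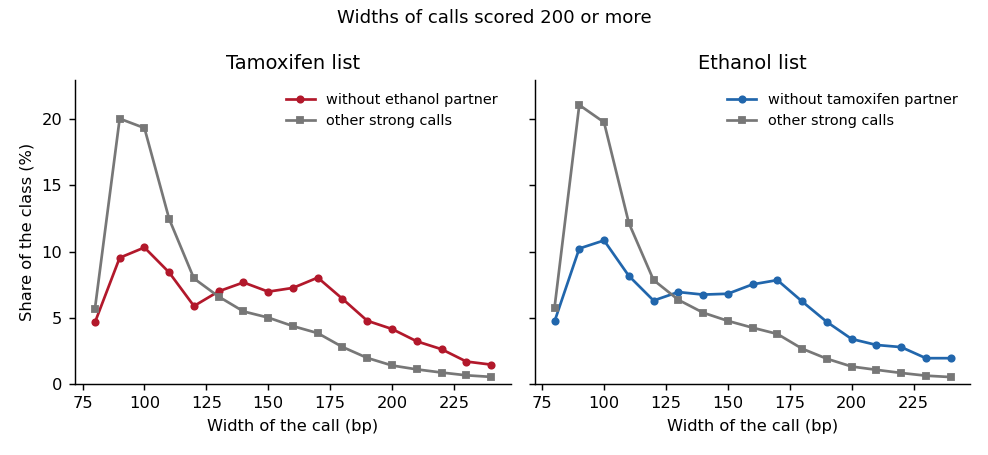
Share of calls by width (bp) among calls scored 200 or more, on the left for the tamoxifen list and on the right for the ethanol list; coloured lines are calls with no centre of the other list within 200 bp and grey lines are the other strong calls. In both lists the unmatched calls have a broad second rise from 130 to 170 bp, and the others peak at 90 bp.

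Nucleosomes beside tamoxifen-only strong calls were less often found at the distance of 1 nucleosome repeat. A tamoxifen call of any score lay 140 to 240 bp away, on at least 1 side, for 829 of the 3860 (21.5%, interval 20.2 to 22.8%), and for 34.9% (34.6 to 35.1%) of the matched strong calls. The contrast was smaller at scores of 300 or more, 34.3% (30.5 to 38.2%) against 38.9% (38.5 to 39.4%). It was larger when calls over 400 bp from every ethanol centre were taken, 11.3% (10.05 to 12.7%) against 34.9%. Such neighbours on both sides were present for 88 (2.28%, 1.85 to 2.80%) and for 5.25% (5.13 to 5.37%). The median distance to the nearest tamoxifen call was 400 bp (390 to 410 bp) against 335 bp (330 to 335 bp). No other tamoxifen call stood within 1000 bp for 738 of them (19.1%, 17.9 to 20.4%), against 13.9% (13.7 to 14.1%) of the matched calls. Part of the difference at 140 to 240 bp follows from the criteria, since a neighbour nearer than 200 bp that both libraries share would have ruled the call out. With the limit at 400 bp, a shared neighbour anywhere from 140 to 240 bp would do so. No conclusion is therefore drawn from the larger contrast at that limit.

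The pattern of neighbours at longer distances, on which the criteria do not act directly, was flatter too. Around matched strong calls, tamoxifen calls rose and fell with distance: per 1000 calls and both sides together, there were 132 in the 25 bp bin at 200 bp, 53.5 at 300 bp, 86.5 at 375 bp, 56.2 at 475 bp and 75.04 at 575 bp. This alternation is the mark of regularly spaced nucleosomes. Around tamoxifen-only strong calls the same bins held 75.9, 57.5, 68.7, 56.0 and 61.1, and the highest bin was at 225 bp, with 82.6.

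As a single measure, the calls 350 to 410 bp away, at the second repeat, were divided by the mean of those 260 to 320 bp and 450 to 510 bp away. The quotient was 1.15 (1.04 to 1.26) around tamoxifen-only and 1.46 (1.44 to 1.49) around matched strong calls. In the ethanol list it was 1.01 (0.911 to 1.13) around the strong calls with no tamoxifen partner and 1.31 (1.28 to 1.33) around the others, each counted with ethanol calls. Unmatched strong calls of either library thus stood in a less regular neighbourhood. These distance limits were set after the distances had been seen, and since 1 call can neighbour several others the intervals are too narrow.

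Width moved with this result. Around matched strong calls of 170 bp or more the quotient was 0.933 (0.891 to 0.977), and around tamoxifen-only calls of that width 0.885 (0.740 to 1.06). Around calls of 110 bp or less, it was 1.63 (1.59 to 1.66) for matched calls and 1.30 (1.11 to 1.52) for 1270 tamoxifen-only calls. The intervals of the narrow calls did not overlap, and those of the wide calls did. From 120 to 160 bp the quotients were 1.43 (1.39 to 1.47) and 1.26 (1.07 to 1.49), with overlapping intervals. A neighbour at 140 to 240 bp was present for 28.2% of the narrow tamoxifen-only calls and 41.8% of the narrow matched ones, and for 11.5% and 15.4% of those of 170 bp or more.

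**Figure D3:**
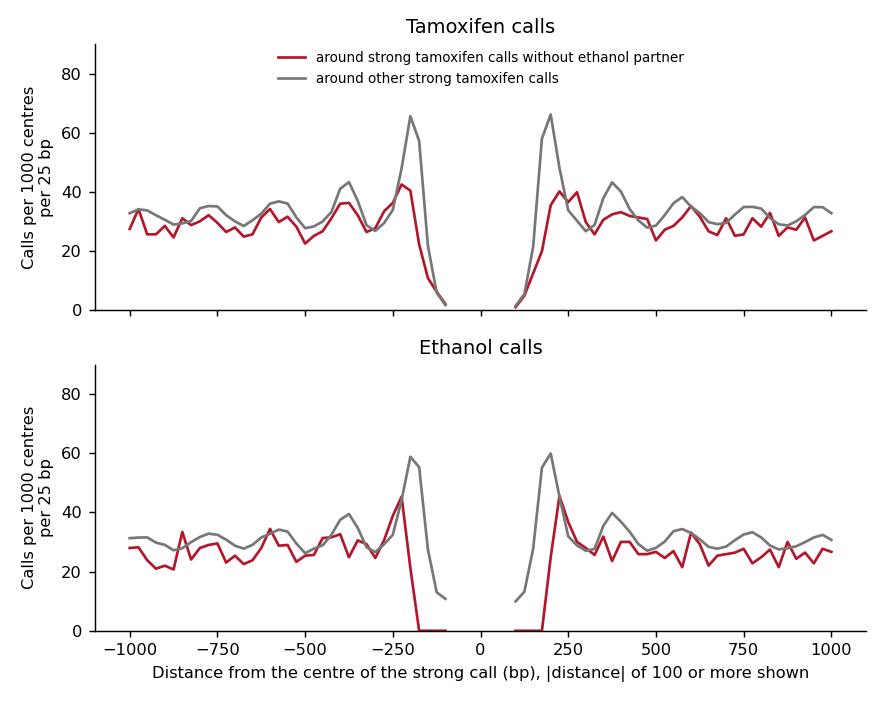
Number of tamoxifen calls (top) and ethanol calls (bottom) per 1000 strong tamoxifen calls in bins of 25 bp, by distance from the centre of the strong call (bp); red lines are tamoxifen-only strong calls, grey lines matched strong calls. The grey lines rise near 200, 375 and 575 bp and the red lines are flatter; the empty stretch of ethanol calls up to 200 bp is set by the criteria.

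Taken over all scores, other nucleosomes near tamoxifen-only strong calls had partners about as often as those near matched ones. For this, the 6640 tamoxifen calls 240 to 1000 bp from a tamoxifen-only strong call were taken, without other calls of that kind. Of these, 58.1% (56.9 to 59.2%) had an ethanol centre within 40 bp, and of the calls in the same ring around matched strong calls 57.8% (57.6 to 58.0%). Among all autosomal tamoxifen calls other than the 3860 the share was 52.2%. Since partners are more frequent for high scores, the rings were also compared within score classes of the neighbours. For neighbours scored under 86 the shares were 38.8% (37.0 to 40.7%) and 40.4% (40.04 to 40.7%). From 86 to under 129 they were 58.1% (55.6 to 60.4%) and 59.3% (58.8 to 59.7%), and from 129 to under 200 72.6% (70.0 to 75.1%) and 73.9% (73.4 to 74.3%). In each score class the share was thus lower near tamoxifen-only calls. Strong neighbours, which have partners most often, were 1252 of the 6640 there and 25041 of 181609 around matched calls.

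For partners within 40 bp, the intervals stood apart only among strong neighbours. Of 1252 neighbours scored 200 or more in the ring, 85.0% (82.9 to 86.9%) had an ethanol centre within 40 bp, and around matched calls 87.8% (87.4 to 88.2%). Among weak neighbours, scored under 86, 42.6% (40.7 to 44.5%) lay over 200 bp from any ethanol centre near tamoxifen-only calls and 39.0% (38.7 to 39.4%) near matched ones. Both differences were under 4 percentage points. The 2 classes of strong calls thus had surroundings of similar agreement between the libraries, while the strong calls themselves had or lacked a partner by the criteria.

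The stretch without an ethanol call around each tamoxifen-only strong call was usually long enough for several nucleosomes. The distance between the flanking ethanol centres had a median of 1975 bp, with quartiles of 1090 and 3606 bp. The criteria force both flanking centres to be over 200 bp away. Ethanol calls numbered 361 to 894 per Mb by autosome. The distance between ethanol calls elsewhere was not computed, so these stretches cannot be called unusual. In 828 cases (21.5%) the strong call was the single tamoxifen call within that stretch. In 1325 cases there were 2 tamoxifen calls, in 947 there were 3, in 477 there were 4 and in 283 there were 5 or more, up to 9. The 3860 calls fell into 3786 such stretches, of which 69 held 2 or more of them. Within 205 to 1000 bp a tamoxifen-only strong call had on average 1.92 tamoxifen and 1.80 ethanol calls, and a matched one 2.14 and 2.02.

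By chromosome, tamoxifen-only strong calls were most numerous on chromosomes 8 (463) and 12 (381), the autosomes with the most calls per Mb in both lists. As a share of the strong calls they were fewest there: 2.26% (2.06 to 2.47%) on chromosome 8 and 2.44% (2.21 to 2.69%) on chromosome 12. The other 17 autosomes lay between 2.74% on chromosome 5 and 3.58% on chromosome 19, with 3.22% (3.11 to 3.33%) together. Per Mb there were 3.51 on chromosome 8, 3.14 on chromosome 12 and 0.990 to 1.90 on the others. On 19 of 19 autosomes the share exceeded that of strong ethanol calls with no tamoxifen partner, and on 3 (chromosomes 8, 10 and 12) the intervals did not overlap. The ratio of the 2 counts ran from 1.08 on chromosome 18 (92 and 85 calls) to 1.53 on chromosome 10 (178 and 116). Autosomes of 1 pair of libraries are not replicates.

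The share was also lower where ethanol calls were locally denser. The strong tamoxifen calls were divided into 10 nearly equal classes by the number of ethanol calls in their window of 100 kb. In the sparsest class, with 1 to 38 ethanol calls per window, 516 of 12990 (3.97%, 3.65 to 4.32%) were tamoxifen-only. The share fell with each denser class, to 218 of 12990 (1.68%, 1.47 to 1.91%) with 186 to 293 ethanol calls. Fewer ethanol calls leave fewer possible partners, so a fall of this kind is built into the criteria to an unknown extent.

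The ethanol list, treated the same way with tamoxifen calls per window, gave a shallower slope. Its share was 2.81% (2.54 to 3.12%) in the sparsest class and 1.72% (1.51 to 1.96%) in the densest. The intervals of the 2 lists stood apart in the 4 sparsest classes and overlapped in the other 6. Among those 6, the ethanol share was slightly higher in class 8 (2.43% against 2.42%) and in the densest class (1.72% against 1.68%). In the others of the 6 the tamoxifen share was higher. By whole chromosome the intervals stood apart on chromosomes 8 and 12 too, which are rich in calls. A share over a whole chromosome does not show where within it the excess lay. With 1 library each, this difference in slope was not tested, and it cannot be told apart from one in read depth, which is unknown.

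**Figure D4:**
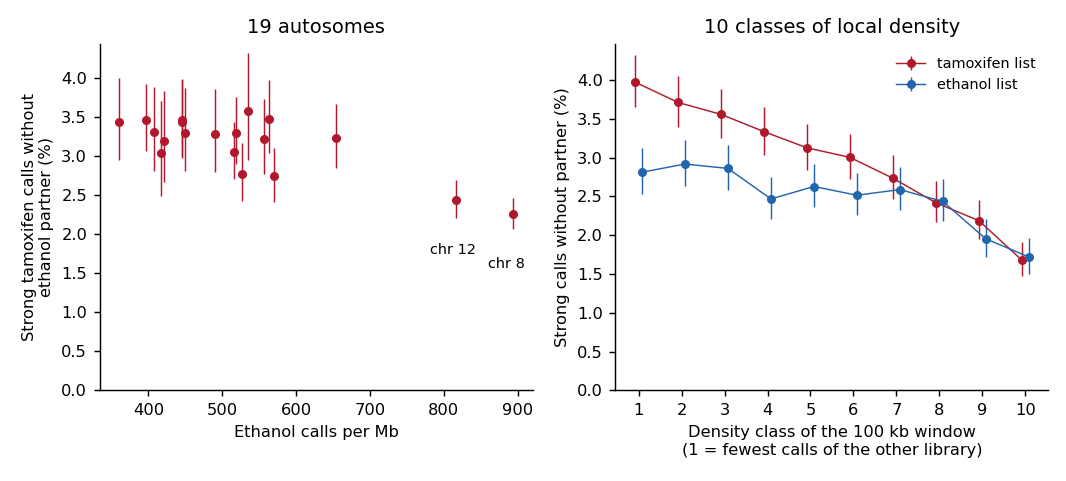
Share of strong tamoxifen calls with no ethanol centre within 200 bp (%) against ethanol calls per Mb for the 19 autosomes (left), and share of unmatched strong calls (%) in 10 classes of local density for the tamoxifen (red) and ethanol (blue) lists (right), with Wilson intervals. Chromosomes 8 and 12 have the lowest shares, and the red line falls from 3.97% to 1.68% where the blue line falls from 2.81% to 1.72%.

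Most tamoxifen-only strong calls had no other of them close by, and a minority stood in close groups. There were 0.990 to 3.51 of them per Mb by autosome. What an even spread at that density would give was not computed, so the values below do not show that they were evenly scattered. The median distance to the nearest other of them was 131315 bp, and 1555 of 2417 windows of 1 Mb with tamoxifen calls held at least 1. Another of them lay within 1000 bp for 158 (4.09%, 3.51 to 4.77%) and within 10000 bp for 364 (9.43%, 8.55 to 10.4%). Among the 578 scored 300 or more, 12.5% (10.01 to 15.4%) had another of the 578 within 1000 bp. Strong ethanol calls with no tamoxifen partner had similar shares at 1000 and 10000 bp, 4.42% (3.75 to 5.20%) and 9.43% (8.45 to 10.5%). All strong tamoxifen calls had another strong call within 1000 bp in 31.5% of cases. They are many more and lie closer together by number alone, so this share does not measure scatter. A strong ethanol call with no tamoxifen partner lay within 1000 bp of 56 tamoxifen-only calls (1.45%, 1.12 to 1.88%) and of 1.01% (0.958 to 1.07%) of the matched strong calls. Within 10000 bp the order was the other way, 6.71% (5.96 to 7.54%) against 7.39% (7.25 to 7.54%), and within 100000 bp 36.7% (35.2 to 38.3%) against 41.2% (40.9 to 41.4%). The first Mb of the listed part of each autosome held 1.40% of the tamoxifen-only and 1.44% of the matched strong calls.

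Linking calls up to 1000 bp apart gave 74 runs of 2 or more, namely 66 of 2 calls, 6 of 3 and 2 of 4. The run of 4 on chromosome 7, 71620831 to 71622401 (mm9), had scores of 221.8 to 859.3 and shared its span with 2 other tamoxifen calls and 2 ethanol calls. The run of 4 on chromosome 3, 144210521 to 144211101, was tighter: its centres spanned 485 bp, its scores ran from 204.9 to 590.5, and no ethanol call lay within it. On chromosome 17, 39981201 to 39981781, 3 calls at the maximum score of 3250 stood within 490 bp, again with no ethanol call among them.

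The same ranking named 2 more runs. On chromosome 17, 84860591 to 84862241, 3 calls scored 548.0 to 1956 were interleaved with 5 ethanol calls, and 2 strong ethanol calls with no tamoxifen partner lay within 1000 bp of the run. On chromosome 2, 172924631 to 172925571, 3 calls scored 573.3 to 724.9 shared the span with 1 ethanol call. The 5 windows of 1 Mb with the most tamoxifen-only strong calls were on chromosomes 8 and 12 and held 12 or 13 each, 2 of them being the first in order of 3 windows tied at 12. In 4 of them, all on chromosome 8, these calls were 2.13 to 2.80% of 464 to 564 strong calls, near the share of that chromosome. On chromosome 12, from 100000001 to 101000000, 13 of 259 strong calls (5.02%, 2.96 to 8.40%) were tamoxifen-only, where the ethanol list had 3 of 218. It ranked among the highest of 2417 windows, so its interval does not allow for the choice.

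The highest scores fell in places of different kinds. The 17 calls at the maximum cannot be ranked, so 10 of them are given in chromosome order. On chromosome 9, 3 calls of 80 or 100 bp starting at 3027811, 3033821 and 3034911 had neighbours at 3250 on both sides in the tamoxifen list and flanking ethanol calls at 3250 as well, 265 to 685 bp away. On chromosome 10, a call of 210 bp at 7234881 to 7235091 and one of 200 bp at 7236701 to 7236901 were also flanked by ethanol calls at 3250, the nearest at 210 and 215 bp. These 5 therefore lay among calls at the maximum in both libraries. For the call at 7236701 the flanking calls stood at nearly the same distances in both lists, 300 and 215 bp with tamoxifen and 295 and 215 bp with ethanol.

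The call on chromosome 8, 56204041 to 56204141, lay 490 bp from the nearest ethanol call and was flanked by ethanol scores of 3250 and 2623. The call on chromosome 5, 33079221 to 33079301, lay 305 bp from an ethanol call scored 1373, and on chromosome 7, 67024201 to 67024281, the flanking ethanol calls, 350 and 470 bp away, were scored 230.5 and 801.8. By contrast, 2 of the 10 had no other call of either list within 1000 bp. On chromosome 6, 29698181 to 29698261 (80 bp wide), the nearest tamoxifen calls, 1615 and 1330 bp away, had scores of 54.5 and 50.9, and the flanking ethanol calls, 2380 and 1985 bp away, had 743.9 and 54.5. On chromosome 11, 18231721 to 18231881 (160 bp wide), the neighbours were scored 53.1 and 62.2 at 1080 and 2115 bp, and the flanking ethanol calls, 12620 bp apart, 119.5 and 85.2. Between the flanking ethanol centres there were 4 tamoxifen calls in each case.

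Company of this kind rose with the score. An ethanol call scored 1000 or more lay within 1000 bp of 34 of the 63 tamoxifen-only calls scored 1000 or more (54.0%, 41.8 to 65.7%), and of 24 of the 2642 scored under 250 (0.908%, 0.611 to 1.35%). No ethanol call at all lay within 1000 bp for 6 of the 63 (9.52%, 4.44 to 19.3%) and for 668 of the 2642 (25.3%, 23.7 to 27.0%). For 10 of the 63 neither list had another call scored 200 or more within 1000 bp. These limits were chosen after the highest calls had been seen. The same shares were not computed for matched strong calls, so the rise with score may not be particular to tamoxifen-only calls.

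The widest stretches without ethanol calls, among tamoxifen-only calls scored 300 or more, differed in how many tamoxifen calls they held. The widest, 18590 bp between ethanol centres, held a single tamoxifen call: chromosome 17, 94044991 to 94045161, 170 bp wide and at the maximum score of 3250, with its nearest tamoxifen neighbours 15910 and 2680 bp away. The next, 17630 bp, held 3 tamoxifen calls, the strong one at chromosome 7, 147733971 to 147734051, with a score of 526.2. Stretches of 14045 bp on chromosome 15 (strong call at 63177741 to 63177931, score 320.9) and 13315 bp on chromosome 14 (105720051 to 105720171, score 302.9) held 1 and 6 tamoxifen calls. That on chromosome 18, 13725 bp, held 7, with the strong call, scored 563.2, 120 bp wide.

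**Figure D5:**
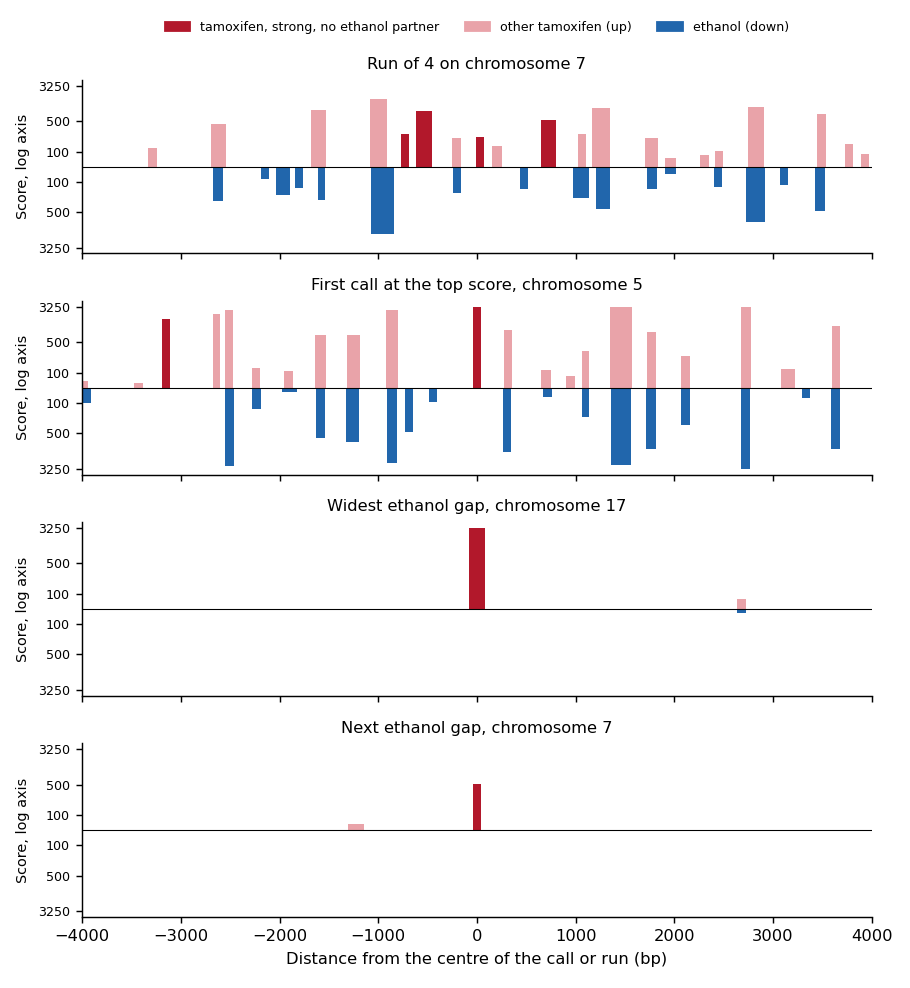
Calls of both lists by distance (bp) from the centre of the run of 4 on chromosome 7, the first call at the maximum score in chromosome order (chromosome 5) and the 2 widest ethanol gaps around tamoxifen-only calls scored 300 or more (chromosomes 17 and 7); bars have the width of the call and the height of its score on a log axis, tamoxifen upwards (dark red for tamoxifen-only strong calls, pale red for other calls) and ethanol downwards (blue). In the upper panels most calls have a counterpart in the other list, and in the lower panels the strong call, scored 3250 or 526.2, stands nearly alone.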

How the data were processed

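MNase-seq nucleosome lists of 1 ethanol and 1 tamoxifen library were used. The authors deposited 1 row per called nucleosome with chromosome, start, end and a score. The submitters' processing notes name Bowtie 0.12.9 and mm9. How nucleosomes were called and scored is not given in the sources used here. Positions are as the files hold them, on a grid of 10 bp, and widths run from 80 to 240 bp. Read depth is unknown: the lists hold 1300009 and 1424844 calls.

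Groups were taken from sample titles. The centre was the midpoint of start and end, and distances are between centres. Shares have Wilson, counts exact Poisson and ratios log-scale Poisson intervals. With 1 library per group no test was possible. Regions were named by fixed rules: 10 highest scores (ties in chromosome order), 5 widest ethanol gaps at scores of 300 or more, 5 largest runs and 5 fullest 1 Mb windows. The calls and rules were chosen with earlier results of these data known. Genes and sequences were not analysed here, for want of a genome of mm9. The counting was tested on simulated data of 20000 calls, where 97 of 97 planted unmatched strong calls were found. Simulated calls lay either well inside or well beyond the limit of 200 bp. The test therefore checked the counting only and did not try calls near that limit. Software was scipy 1.17.1, numpy 2.4.6, matplotlib 3.10.9 and pandas 2.3.3 under Python 3.11.15.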

Additional observations from a re-analysis of the deposited data

How the results depend on the processing

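The number of tamoxifen-only strong calls, 3860 or 2.97% of strong calls, follows the cutoffs: 16606 (6.48%) at a score of 150 or more, 578 (1.21%) at 300 or more, 6775 (5.22%) over 100 bp and 2212 (1.70%) over 400 bp from ethanol centres, and 6321 (4.87%) when they only had to overlap no ethanol call. Without chromosomes 8 and 12 the share was 3.22%, and with all chromosomes 3924 calls were found. The ratio to the ethanol count, 1.25, was 1.35 at 150 or more, 1.03 (0.917 to 1.16) at 300 or more, 1.31 over 400 bp, and 1.12 with equal numbers of strong calls. The median width, 140 bp, was 130 bp at 150 or more; matched calls stayed at 110 bp in the 4 alternatives run for width. The share with another such call within 1000 bp, 4.09%, was 12.5% at 300 or more, 1.67% over 400 bp, 3.35% without chromosomes 8 and 12, and 9.43% within 10000 bp. The share with a neighbour at 140 to 240 bp, 21.5% against 34.9% of matched calls, was 17.7% against 33.0% at 150 or more, 34.3% (30.5 to 38.2%) against 38.9% at 300 or more, 11.3% against 34.9% over 400 bp, 19.5% against 32.6% without chromosomes 8 and 12, and 18.4% for 150 to 230 bp. The share of nearby calls with an ethanol centre within 40 bp, 58.1%, was 55.8% at 150 or more and also without chromosomes 8 and 12, 65.5% at 300 or more, 47.0% over 400 bp, and 44.8% within 20 bp. Stricter limits remove calls by construction, and the limit of 400 bp also removes calls with a shared neighbour at 140 to 240 bp. Otherwise the cause was not tested. Depth in reads is unknown, so a position not called with ethanol may be one not detectable there. No paired analysis was possible because there is only 1 library of each treatment.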
